A study of Homo sapiens with 4 samples.

Results

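The genes described here make, move, break down and sense acetylcholine. They are the cholinesterases BCHE and ACHE, the synthetic enzyme CHAT, the transporters SLC5A7 and SLC18A3, the cholinesterase anchors COLQ and PRIMA1, and the muscarinic receptors CHRM1 and CHRM3. All probe sets that the platform annotation pairs with these 9 symbols were taken, which gave 16 probe sets of the 39464 that name a single gene, and 9 genes of the 19583 on the arrays. BCHE was chosen by its difference between the 2 groups of these same arrays, already known to be among the highest. The other genes were added for their roles, with earlier results of these data known. The values of the 9 genes are therefore given as a description, without a test.

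RNA was measured on 4 Affymetrix arrays from LNCap, a human prostate cancer cell line that responds to androgen. The 2 arrays labelled LNCap ERG came from cells given a lentivirus for ERG, an ETS transcription factor, joined with red fluorescent protein, and the 2 arrays labelled LNCap Vector came from cells given the lentivirus for the fluorescent protein alone. Both kinds of cells grew in the same RPMI medium and had no other treatment. The sources used here do not name the promoter that drives the transgene, and nothing in them says that arrays of 1 group stem from independent cultures. The p-values therefore cover no more than the array-to-array spread, which may be technical.

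The prostate markers of the cell line were present: 8 of the 10 listed were measured, and all 8 lay between mean log2 intensities of 9.87 and 12.9, KLK3 and FOLH1 among them. The 4 probe sets of ERG read between 2.65 and 3.58 on every array, with log2 fold changes of -0.24 to 0.12, and it is not known here whether they can read the transduced ERG. They do not check the labels. As a rough guide to background, 30 measured genes that belong to other organs were read. On the log2 scale they had a median of 3.34, a 95th percentile of 4.46 and a highest mean of 5.37. Between the 2 ERG arrays the log2 values of all genes differed by an SD of 0.185, and between the 2 Vector arrays by 0.189.

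Acetylcholine is made from choline and acetyl-CoA by choline acetyltransferase, packed into vesicles, released, and split within the synapse by acetylcholinesterase, after which choline is taken back into the cell. Butyrylcholinesterase, its close relative, splits a wider range of choline esters, circulates in plasma, and also cleaves the hormone ghrelin. Cholinergic nerves innervate the prostate, where muscarinic receptors of the M1 and M3 types act through Gq proteins and phospholipase C to raise intracellular calcium.

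BCHE RNA was about 3 times as abundant in the arrays labelled LNCap ERG as in the Vector arrays. Its single probe set had log2 intensities of 8.92 and 9.16 on the ERG arrays and of 7.34 and 7.53 on the Vector arrays. On the linear scale of the deposited values these are 483 and 572 against 162 and 185. Both ERG arrays lay above both Vector arrays, with a gap of 1.39 on the log2 scale between the nearest arrays of the 2 groups.

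The group means of BCHE were 9.04 ± 0.17 (SD, n = 2) and 7.44 ± 0.13 (SD, n = 2) on the log2 scale. The log2 fold change was 1.60, a 3.03-fold difference, and ranked 2 among the 19583 genes ordered from the highest, after that of DDC. BCHE was 1 of 6 genes (0.0306% of all) with at least 1 on this scale and no overlap between the groups, and nothing is read from that, since it was chosen for this difference. Without single arrays it ran from 1.48 to 1.72. Since the arrays hold RNA of whole cultures, more cells with BCHE RNA and more BCHE RNA per cell cannot be told apart. All of this rests on 1 probe set, so no second probe set checks it.

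Markers of other cells were read beside it. Of 6 fibroblast markers, 5 had mean log2 intensities of at most 4.44, under the 95th percentile of the genes of other organs, and the summed level of the list ran from 8.88 to 8.98 on the ERG arrays and from 8.56 to 8.62 on the Vector arrays. Most of that sum is COL1A1, a collagen chain, at 8.74 ± 0.07 against 8.36 ± 0.05 (SD, 2 arrays each), and its other 4 probe sets had log2 fold changes from -0.49 to 0.32. COL1A2, the partner chain in type I collagen, had group means of 3.04 and 3.25, within the background range. The part of COL1A1 in the BCHE value was not tested. Of 8 measured neuron and Schwann cell markers only NEFL, a neurofilament gene, lay above that percentile, and the summed level of this list overlapped between the groups (8.12 to 8.22 against 8.19 to 8.27).

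**Figure D1:**
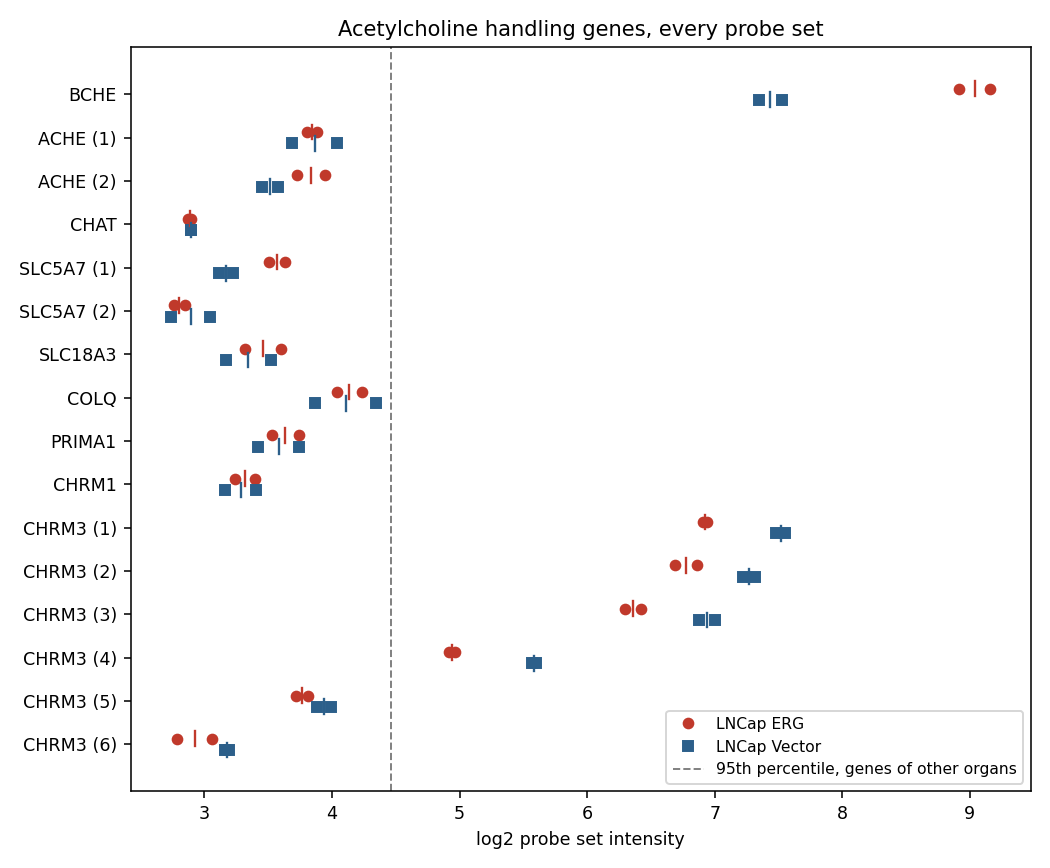
Log2 probe set intensity (x axis) for each of the 16 probe sets of the 9 genes (y axis; numbers in brackets order the probe sets of a gene from the brightest). Circles are the 2 LNCap ERG arrays, squares the 2 LNCap Vector arrays, short lines mean values of a group; the dashed line stands at 4.46, where the 95th percentile of other-organ genes lies. BCHE lies apart at 9.04 against 7.44, and the 6 CHRM3 probe sets all read lower in the ERG arrays.

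The stretch of the genome just before the BCHE start site was read because the transduced factor belongs to the ETS family, whose members recognise a GGAA core. The 250 bases before the start of BCHE lie at chr3:165837424-165837673 on the minus strand, and those before the start of CHRM3, the M3 receptor gene, at chr1:239386318-239386567 on the plus strand. Both come from RefSeq on GRCh38.p14 and are written 5′ to 3′ on the strand of the gene, with capitals for each GGAA or its reverse complement TTCC. The array files name no genome build, and the windows were taken by gene symbol.
BCHE: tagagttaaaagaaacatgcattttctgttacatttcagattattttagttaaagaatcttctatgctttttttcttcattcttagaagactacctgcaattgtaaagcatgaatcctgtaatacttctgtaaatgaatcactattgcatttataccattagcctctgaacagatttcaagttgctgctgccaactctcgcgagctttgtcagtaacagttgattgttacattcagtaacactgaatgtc
CHRM3: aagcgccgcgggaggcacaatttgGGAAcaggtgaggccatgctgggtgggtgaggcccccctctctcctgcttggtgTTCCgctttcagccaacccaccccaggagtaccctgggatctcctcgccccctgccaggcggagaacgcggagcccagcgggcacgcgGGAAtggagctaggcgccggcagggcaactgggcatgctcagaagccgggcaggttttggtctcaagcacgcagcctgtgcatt

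The BCHE window holds no GGAA and no TTCC, and the CHRM3 window holds 3, the nearest beginning 84 bases before the start. Among all 35116 RefSeq windows of this length 92.7% hold at least 1 such match, with a median of 3. The longer form CGGAAG, which contains the core, was searched on both strands too and occurs in neither window, against 16.5% of all windows. The BCHE window has 33.2% G and C, where the median of all windows is 58.0%. Among the other members, PRIMA1 had 0 matches of the core, SLC5A7 and COLQ 2 each, SLC18A3 5 and CHRM1 6, while ACHE and CHAT, with 3 windows each, had 0 to 2 and 5. These counts describe letters in a short window and say nothing about binding of a factor here or farther away.

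ACHE, the acetylcholinesterase that ends the signal at synapses, was dim on all arrays. Its brighter probe set read 3.80 and 3.89 on the ERG arrays and 4.04 and 3.69 on the Vector arrays, so the groups overlapped, with a log2 fold change of -0.02. The dimmer probe set read 3.94 and 3.73 against 3.58 and 3.45, without overlap, with a log2 fold change of 0.32. Both probe sets lay under 4.46 on every array, in the range of genes of other organs. The largest difference among the 30 reference genes, each read by its brightest probe set only, was 0.34.

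COLQ, the collagen tail that anchors asymmetric cholinesterase forms at the neuromuscular junction, read 4.24 and 4.04 on the ERG arrays and 3.87 and 4.35 on the Vector arrays. PRIMA1, the membrane anchor of cholinesterase tetramers in brain, read 3.74 and 3.53 against 3.74 and 3.42. Their log2 fold changes were 0.03 and 0.05. The groups overlapped for both anchors, and both stayed within the background range.

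The genes of acetylcholine synthesis and transport were as dim. CHAT, which joins choline and acetyl-CoA, read 2.90 and 2.87 on the ERG arrays and 2.89 and 2.90 on the Vector arrays. SLC18A3, the vesicular acetylcholine transporter, whose gene lies within the CHAT locus, read 3.60 and 3.32 against 3.52 and 3.17. The log2 fold changes were -0.01 and 0.12, with overlap between the groups in both.

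SLC5A7, the high-affinity choline transporter of cholinergic neurons, had probe sets that differed. The brighter read 3.63 and 3.51 on the ERG arrays and 3.23 and 3.12 on the Vector arrays, without overlap and with a log2 fold change of 0.40. The dimmer read 2.85 and 2.76 against 2.74 and 3.04, with overlap and a log2 fold change of -0.09. The brighter probe set is of a kind, marked s, that can pick up related transcripts, and the dimmer is of the plain kind. Both probe sets of ACHE and the only one of CHAT are also marked s. Both SLC5A7 probe sets lay under 4.46 on every array. The 0.40 is somewhat above the largest difference among the 30 reference genes, 0.34.

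CHRM3, the M3 muscarinic receptor, which drives glandular secretion and smooth muscle contraction, was lower in the ERG arrays at each of its 6 probe sets. The brightest read 6.94 and 6.90 on the ERG arrays and 7.48 and 7.55 on the Vector arrays, with group means of 6.92 ± 0.03 and 7.52 ± 0.05 (SD, n = 2 in each group). Its log2 fold change was -0.59, a 1.51-fold difference. From the lowest log2 fold change upward CHRM3 ranked 54 among the 19583 genes. Nothing is read from this rank, since the list was drawn up with this comparison known.

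The next 3 probe sets of CHRM3 by brightness gave the same picture. The second read 6.86 and 6.69 against 7.32 and 7.22, the third 6.30 and 6.42 against 6.87 and 7.00, and the fourth 4.92 and 4.97 against 5.57 and 5.60. Over these 4 brighter probe sets the log2 fold changes ran from -0.64 to -0.49, and no SD within a group was above 0.12. The remaining probe sets lay under 4.46 on every array and had -0.17 and -0.26. Without single arrays the brightest probe set ran from -0.63 to -0.56, and the mean over all 6 had -0.45. The probe sets share the same RNA on the same arrays, so their number adds no replicate of the groups.

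CHRM1, the M1 receptor, read 3.40 and 3.24 on the ERG arrays and 3.16 and 3.40 on the Vector arrays, with overlap and a log2 fold change of 0.03. It was not above the background range in either group.

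Counted by gene, with the brightest probe set of each, the groups did not overlap in 3 of the 9: BCHE and SLC5A7 were higher and CHRM3 lower in the ERG arrays. Over all 19583 genes 40.9% did not overlap (21.7% higher and 19.1% lower). By probe set it was 9 of 16, 3 higher and 6 lower, of which the 6 all belong to CHRM3, where all 39464 probe sets gave 39% (18.9% higher and 20.1% lower). Without BCHE the median log2 fold change of the other 8 genes was 0.03, and that of all genes 0.01. Since the list was drawn up with this comparison known, nothing is read from these counts. Only BCHE and CHRM3 had any array above 4.46, while 7 of the 9 genes stayed under it at every probe set and array.

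**Figure D2:**
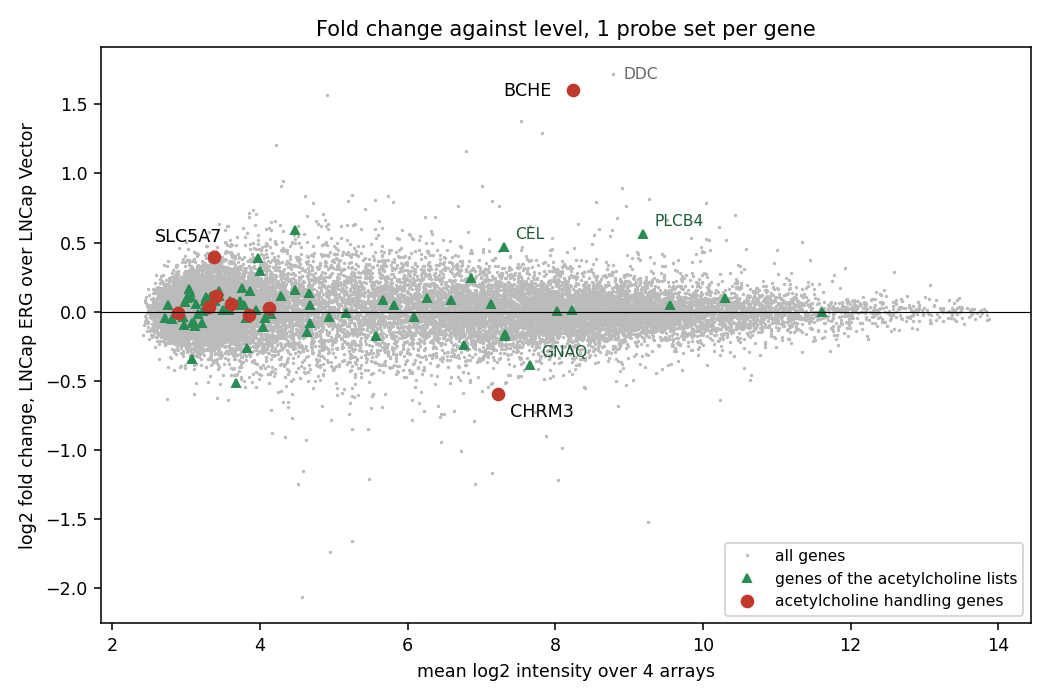
Log2 fold change of the LNCap ERG over the LNCap Vector arrays (y axis) against the mean log2 intensity over 4 arrays (x axis), with 1 probe set for each of 19583 genes. BCHE stands near the top at 1.60, beside DDC, and CHRM3 lies in the lower part at -0.59, while the other red points gather at the dim end on the left.

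Further genes that carry, relay or supply acetylcholine signals were read from the fit over all genes with limma and Benjamini-Hochberg adjustment, which called 1 gene higher (DDC) and 1 lower (PEG3) at an adjusted p under 0.05 (0.00511% in each direction, 0.0102% in either). The lists were drawn up with earlier results of these data known, so their p-values and counts are given as a description. Of 72 measured genes in 8 lists, none was called in either direction. At an unadjusted p under 0.05 limma gave 5 higher and 5 lower, where all genes had 5.61% higher and 4.11% lower (9.71% in either direction). By the methods' t-test 4 were higher and 2 lower before adjustment, where all genes had 4.38% higher and 3.76% lower, and none after it. The median log2 fold change of the 72 was 0.05, with 46 above 0 and 26 below, and that of all genes was 0.01. The share of all genes above 0 was not counted, so nothing is read from these signs. Of these genes 27 had a mean at or above 4.46.

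Among the genes that carry the M1 and M3 signal inward, PLCB4 and GNAQ were named for having the smallest p-values. PLCB4, a phospholipase C that Gq proteins switch on, read 9.46 and 9.47 on the ERG arrays and 8.89 and 8.91 on the Vector arrays. Its group means were 9.46 ± 0.005 and 8.90 ± 0.02 (SD, 2 arrays each), which differ by 0.56 with a standard error of 0.07 (limma, adjusted p = 0.22). The other 2 probe sets had 0.53 and 0.48, and in all 3 the groups did not overlap. Of all probe sets 18.9% were higher without overlap, and probe sets of 1 gene share the same RNA. Over the settings that keep all 4 arrays its adjusted p ran from 0.0068 to 0.50, and PLCB4 passed the threshold in 3 of them: with trended, robust moderation (0.0068), with dimmer genes left out (0.032) and with an offset before log2 (0.045).

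GNAQ, the alpha subunit of Gq that couples the M3 receptor to phospholipase C, read 7.35 and 7.58 on the ERG arrays and 7.80 and 7.90 on the Vector arrays. The group means differed by -0.38 with a standard error of 0.11 (limma, adjusted p = 0.39). All 5 of its probe sets had values below 0, from -0.62 to -0.07, and in 3 of them the groups did not overlap. Of all probe sets 20.1% were lower without overlap, and those of GNAQ share the same RNA. Over the 14 measured genes of this list the median log2 fold change was -0.06. An unadjusted p under 0.05 by limma was reached by 1 higher and 2 lower, against 5.61% and 4.11% of all genes.

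**Figure D3:**
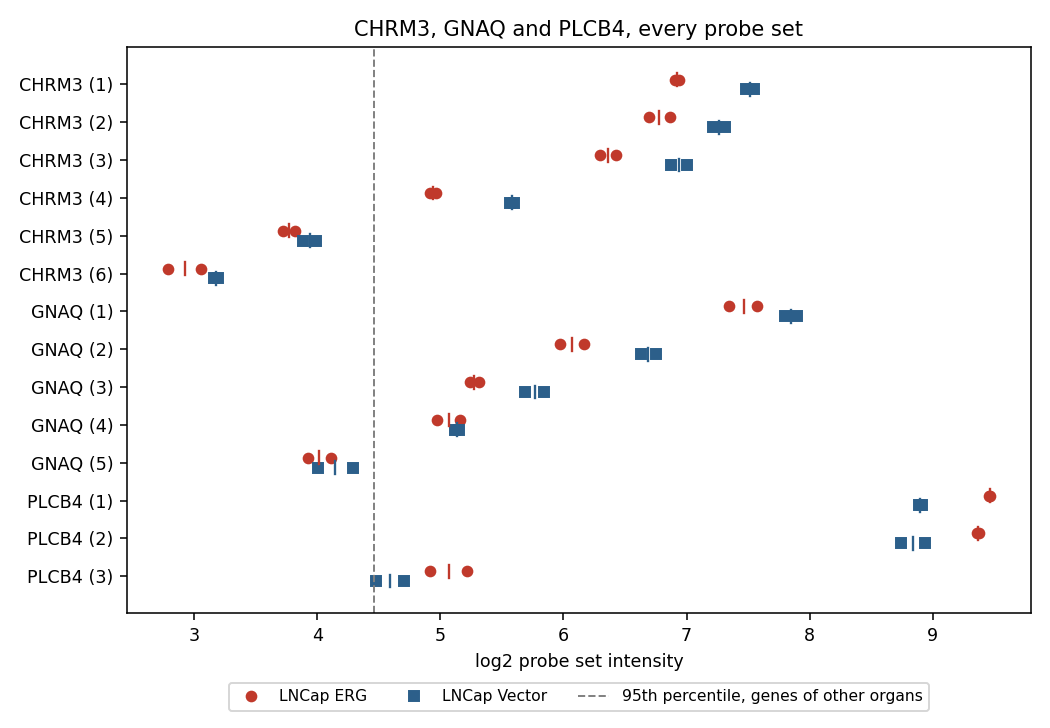
Log2 probe set intensity (x axis) of every probe set of CHRM3, GNAQ and PLCB4 (y axis, brightest first within each gene). Circles are the LNCap ERG arrays, squares the LNCap Vector arrays, short lines mean values of a group, and the dashed line stands at 4.46. All CHRM3 and GNAQ means are lower and all PLCB4 means higher in the ERG arrays.

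The cholinesterase fold is shared by carboxylesterases, by neuroligins and by CEL, a bile salt-stimulated lipase. Of 11 such genes 10 were measured, with a median log2 fold change of 0.14. An unadjusted p under 0.05 by limma was reached by 2 higher and 0 lower, against 5.61% and 4.11% of all genes. CEL read 7.55 and 7.52 on the ERG arrays and 7.17 and 6.96 on the Vector arrays, which is 0.47 higher with a standard error of 0.10 (limma, adjusted p = 0.33). Its second probe set had 0.49, also without overlap, where 18.9% of all probe sets were higher without overlap. Both share the same RNA and are of the kind whose probes may match related transcripts. NLGN1, a neuroligin of excitatory synapses, read 4.49 and 5.05 against 4.25 and 4.11, which gave 0.59 with a standard error of 0.19 (limma, adjusted p = 0.45), and its other probe set had -0.08. NLGN1 had 0.31 without the second ERG array and 0.87 without the first. CES5A, a carboxylesterase, had the lowest value of the list at -0.05 (adjusted p = 0.89), within the background range.

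Of the other muscarinic receptors, CHRM4 and CHRM2, which couple to Gi, had log2 fold changes of 0.10 and 0.06 (adjusted p = 0.71 and adjusted p = 0.87 from limma). None of the 3 measured had a mean at 4.46 or above. CHRM3 was therefore the muscarinic receptor with signal above the background range on these arrays.

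The nicotinic receptors are ion channels built from several subunits, a family apart from the muscarinic receptors. Of 16 subunits 14 were measured, with 9 values above 0, 5 below and a median log2 fold change of 0.09. Nothing is read from these signs, since the share of all genes above 0 was not counted. At an unadjusted p under 0.05 limma gave 2 higher, CHRNA3 (0.39) and CHRNA10 (0.29), and 1 lower, CHRNA6 (-0.26), with adjusted p-values of 0.37, 0.37 and 0.43. Among all genes 5.61% were higher and 4.11% lower at that unadjusted threshold. For CHRNA3 and CHRNA10 other probe sets of the same gene had values below 0. All of these lay under 4.46 in both groups, as did 11 of the 14 subunits by their mean. The 3 subunits with a mean at or above 4.46 did not reach an unadjusted p under 0.05 by limma. Their values are not given here.

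The proteins that assemble or tune nicotinic receptors had 15 measured genes. An unadjusted p under 0.05 by limma was reached by 0 higher and 2 lower, against 5.61% and 4.11% of all genes. The 2 lower were LYPD6B and RAPSN. LYPD6B, a Ly6 protein that modulates nicotinic receptors, had -0.52 with a standard error of 0.13 (limma, adjusted p = 0.37). RAPSN, rapsyn, which clusters receptors at the muscle endplate, had -0.34 with a standard error of 0.12 (limma, adjusted p = 0.48). Without the first Vector array RAPSN had -0.18, and without the second -0.50. Both were dim in every array, with LYPD6B at 3.25 to 3.98 and RAPSN at 2.88 to 3.40. LY6H, another Ly6 protein, had the highest value of the list, 0.11 (adjusted p = 0.80), and 0.0013 to 0.22 without single arrays.

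Genes that supply choline and acetyl-CoA had small differences. The 8 measured had a median log2 fold change of 0.01 and a range of -0.14 to 0.10, and none reached an unadjusted p of 0.05 by limma or by the methods' t-test. SLC44A1, a choline transporter of most cells, was at 10.34 ± 0.00011 and 10.24 ± 0.05 (SD, 2 arrays each), 0.10 higher with a standard error of 0.08 (limma, adjusted p = 0.71), and its other 5 probe sets ranged from -0.35 to 0.16. SLC44A3, of the same family and the lowest of the list, had -0.14 with a standard error of 0.14 (adjusted p = 0.77). In ghrelin signalling, GHRL, which encodes the hormone, and GHSR, its receptor, had 0.05 and -0.04 at their brightest probe sets. Their adjusted p-values from limma were 0.95 and 0.97, with overlap between the groups. The second GHRL probe set had 0.265, and the other 2 of GHSR had -0.0283 and 0.173.

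Transcription factors that specify cholinergic neurons had 6 measured genes and none at an unadjusted p under 0.05. LHX3, a motor neuron factor, had 0.16 (adjusted p = 0.58 from limma) at a level within the background range. MNX1, another motor neuron factor, read 7.33 and 7.14 on the ERG arrays and 7.34 and 7.49 on the Vector arrays, which gave -0.18 with a standard error of 0.11 (limma, adjusted p = 0.64). It had -0.08 without the second ERG array, -0.28 without the first and -0.10 without the second Vector array.

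**Figure D4:**
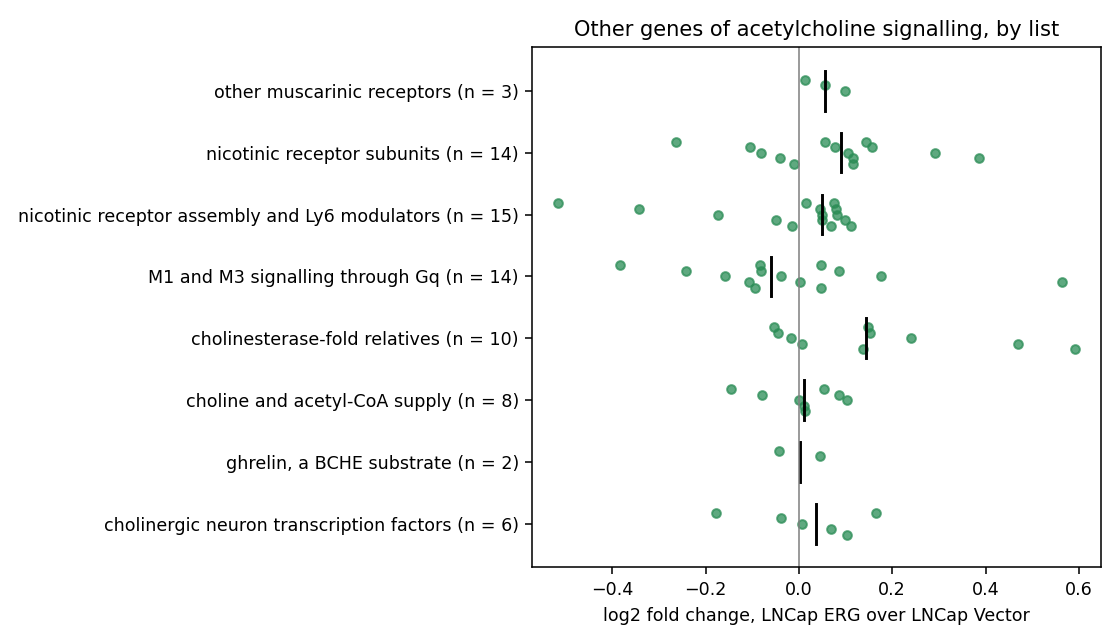
Log2 fold change of the LNCap ERG over the LNCap Vector arrays (x axis) for the 72 measured genes in 8 lists of acetylcholine signalling (y axis, with the number of genes measured). Points are genes, spread vertically to be visible, and black lines the list medians, which lie between -0.06 for M1 and M3 signalling and 0.14 for the cholinesterase-fold relatives.

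The genes whose profile over the 4 arrays came closest to that of BCHE were sought among the 11035 genes with a mean at or above 4.46. Likeness was the root mean square difference between log2 values, each centred on the mean of the gene over the 4 arrays, so that 0 is an identical profile. The closest was DDC, the decarboxylase that makes dopamine and serotonin, at 0.13, followed by TARP at 0.17, SCNN1G at 0.24, UGT2B17 at 0.24 and UGT2B15 at 0.36. TARP is transcribed in prostate cells from the T cell receptor gamma locus, SCNN1G a subunit of the epithelial sodium channel, and the UGT2B enzymes glucuronidate androgens. These values come from the brightest probe set of each gene, and the other probe sets did not all share them. The second probe set of DDC had a log2 fold change of 0.06, that of SCNN1G 0.02, and the other 2 of UGT2B15 had -0.00088 and 1.12. Among probe sets that name a single gene, TARP and UGT2B17 have only 1 each. That of TARP and the brightest of UGT2B15 are marked x and are not of the plain kind. With 4 arrays in 2 groups, this measure mostly finds genes with a log2 fold change near that of BCHE, here 0.89 to 1.72.

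Along chromosome 3 the measured protein-coding neighbours of BCHE read within the background range on all arrays, except SLITRK3 and 1 array of ZBBX. SLITRK3, a synaptic adhesion protein and the nearest on the side of lower coordinates, read 5.11 and 4.99 on the ERG arrays and 4.51 and 4.52 on the Vector arrays, which gave 0.54 with a standard error of 0.08 (limma, adjusted p = 0.25). Its groups did not overlap, as in 40.9% of all genes. All its values lay under 5.37, the highest mean among the 30 reference genes of other organs. ZBBX, the nearest on the other side, read 3.99 and 4.54 against 4.05 and 4.07, with overlap and a log2 fold change of 0.20 (adjusted p = 0.76). The next genes outward, SI and SPTSSB on the first side and SERPINI2 and WDR49 on the second, read 2.83 to 3.15 over the 4 arrays and had log2 fold changes of -0.03 to 0.12.

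**Figure D5:**
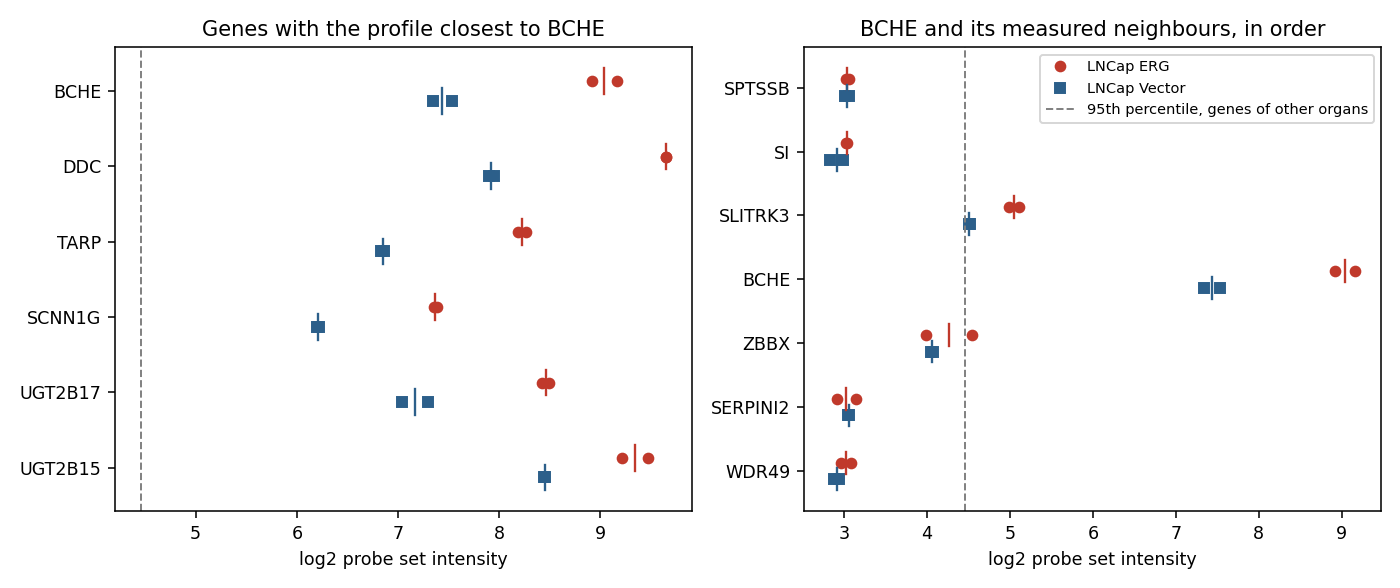
Log2 probe set intensity (x axes) of BCHE with the 5 genes of closest profile (left, from the closest) and with its 3 measured protein-coding neighbours on each side in chromosome order (right). Circles are the LNCap ERG arrays, squares the LNCap Vector arrays, short lines mean values of a group, and the dashed line stands at 4.46. Among the neighbours, SLITRK3 is higher in both ERG arrays and the others lie near or under the dashed line.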

How the data were processed

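The authors deposited probe set intensities, made from scanned Affymetrix arrays with dChip and RMAexpress (versions not given in the sources used here) and read here as linear from array medians of 14.0 to 14.4 and maxima of 14962 to 15344. They were taken to log2. Of 51965 probe sets, 2 lacked a value and were dropped, and 39466 name 1 gene, 838 several and 11661 none in the platform annotation. Only those naming 1 gene were used. For each gene the brightest probe set, by its mean of 4 arrays, entered a fit of the 2 groups over all 19583 genes. The fit used limma 3.58.1 (lmFit and eBayes, R 4.3.3) with 2 residual and 3.23 prior degrees of freedom. Benjamini-Hochberg adjustment was applied with a threshold of 0.05. The fit was tested on simulated data with log2 changes of 1 and 2. Smaller changes, such as those of the list genes, were not simulated. Members and lists were chosen with earlier results of these data known. Named genes were the members, ERG, KLK3 and FOLH1, any list gene that passed, the 2 list genes with the smallest p (and both extremes of lists of over 10), the 5 closest profiles and 3 neighbours on each side from RefSeq; COL1A1, COL1A2, NEFL and PEG3 were chosen after their values were seen. Promoter windows came from RefSeq, GRCh38.p14, for all 9 members. Figures were drawn with matplotlib 3.10.9. As alternatives, moderation was trended and robust, or the fit used only brighter genes, the mean of probe sets, plain probe sets, all probe sets, quantile normalization again, housekeeping centring, an offset of 16, a replicate block or 3 of 4 arrays, and the methods' t-test was run. Arrays have no read depth: their number limits the precision.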

Additional observations from a re-analysis of the deposited data

How the results depend on the processing

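Genes called over all genes, 1 higher and 1 lower, became 48 and 41 with trended and robust moderation, 31 and 23 without genes below the median intensity, 17 and 10 with an offset of 16, 6 and 8 with the mean of probe sets, 4 and 4 with housekeeping centring, 2 and 1 with quantile normalization again, and 1 and 2 with plain probe sets. They were 0 and 0 with all probe sets together, the replicate block and the methods' t-test, and 0 to 0 with single arrays left out, where 1 residual degree of freedom is left and the lone array is assumed to vary like the other group. The replicate block changed no call in the acetylcholine lists (0 higher and 0 lower), and the samples share only a number: the deviations of same-numbered arrays had a correlation of 0.0765. In those lists 1 gene, PLCB4, was called higher with trended and robust moderation, without the dimmer genes and with the offset. The cause was not tested. BCHE ran from 1.52 to 1.61 over the settings with all 4 arrays and from 1.48 to 1.72 with single arrays left out, and CHRM3 from -0.66 to -0.45 and from -0.63 to -0.56. The other 7 members each turned sign in some setting: with single arrays left out ACHE ran from -0.20 to 0.16, COLQ from -0.21 to 0.27, SLC18A3 from -0.061 to 0.29, PRIMA1 from -0.11 to 0.21, CHRM1 from -0.085 to 0.15 and CHAT from -0.024 to 0.0031, and SLC5A7 had -0.089 with plain probe sets. Members without overlap numbered 9 when counted by probe set and 2 to 4 by gene. Among 19 list genes, 6 turned sign in some setting: CHRM2 to -0.0064 and GHRL to -0.018 with housekeeping centring, SLC44A1 to -0.11 and GHSR to 0.034 with the mean of probe sets, and with single arrays left out CES5A (-0.13 to 0.025, turned without the second Vector array), SLC44A3 (-0.29 to 0.0041, likewise), GHRL (-0.12 to 0.21, turned without the first ERG or the second Vector array) and GHSR (-0.25 to 0.16, turned without the second ERG or the second Vector array).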
